A study of Homo sapiens with 42 samples.

Results

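Regions of chromatin that were open only in MCF10A cells treated with interferon gamma (IFNG) are described here. They were defined from the peaks of ATAC-seq, a sequencing assay in which a transposase cuts DNA that is not packed away by nucleosomes and a peak marks a stretch cut more often than its surroundings. Overlapping peaks of all 42 libraries on chromosomes 1 to 22 and X were merged into 167085 sites. A site was kept when it was called in at least 4 of the 6 IFNG libraries and in none of the other 36 libraries. The rule kept 702 sites, 0.42% of all merged sites. Because detection chose them, their presence under IFNG and absence elsewhere is a description and was not tested.

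MCF10A is an established cell line from human breast epithelium that does not form tumours. The IFNG cells received 20 ng/ml IFNG together with EGF and were collected at 24 h and at 48 h, with 3 libraries (A, B and C) at each time. The other libraries came from CTRL cells taken at 0 h (4 libraries), and from cells given PBS (6), 10 ng/ml EGF (8), 40 ng/ml HGF (6), 10 ng/ml OSM (6) or 10 ng/ml TGFB together with EGF (6) for 24 h or 48 h. All cells, CTRL included, were first held in experimental medium with serum, hydrocortisone and cholera toxin and without EGF or insulin. Per the study's methods the assays used biological triplicates, and p-values measure the spread between these libraries. Peaks lay within 500 bp of a start of the epithelial genes KRT18 and EGFR in 5 of the 6 IFNG libraries each, and in 31 and 30 of the other 36. Other epithelial genes varied: EPCAM had a peak in 5 IFNG and 21 other libraries and ITGA6 in 4 and 30. KRT5 had a peak in 3 and 28, CDH1 in 2 and 26 and KRT14 in 0 and 10. No library had a peak at a start of TP63, a factor of basal epithelium, or of the blood and endothelial genes PTPRC, CD3E, PECAM1 and CDH5. CD14, a monocyte gene, had a peak at a start in 5 IFNG and 31 other libraries.

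IFNG binds a receptor that activates the kinases JAK1 and JAK2, which phosphorylate transcription factors of the STAT family. STAT dimers bind the gamma-activated site (GAS), and they induce further factors such as IRF1, which binds the interferon-stimulated response element (ISRE) together with its relatives. The genes switched on in this way present antigen, attract lymphocytes and restrict microbes that live inside cells.

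The sequences below are examples of sites that hold a match to GAS, to ISRE or to both. Each is the reference sequence (hg38, plus strand) from 100 bp before to 100 bp after the median summit, the base with the highest signal. Capitals mark a match to the ISRE string GAAANNGAAA on either strand or to the GAS string TTCNNNGAA. All 4 sites were named by the rule given with the methods, and none overlaps an annotated untranslated region. Only named sites with a match were shown, so they do not stand for all named sites. The named sites at the GBP5 start and at IRF1, PML, NLRC5 and CD74 held neither string in this window. The first lies between genes, 17880 bp from the start of EID2, and was found in all 6 IFNG libraries (chr19:39557941-39558141). It holds 2 ISRE matches.
EID2 region: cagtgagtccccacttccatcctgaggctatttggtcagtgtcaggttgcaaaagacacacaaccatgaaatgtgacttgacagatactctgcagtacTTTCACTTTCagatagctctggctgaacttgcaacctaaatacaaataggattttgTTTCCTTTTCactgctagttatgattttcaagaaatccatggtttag
The site 14175 bp from the start of GBP5, a guanylate-binding protein of cell-autonomous defence, holds 1 GAS and 1 ISRE match (chr1:89286935-89287135).
GBP5 distal: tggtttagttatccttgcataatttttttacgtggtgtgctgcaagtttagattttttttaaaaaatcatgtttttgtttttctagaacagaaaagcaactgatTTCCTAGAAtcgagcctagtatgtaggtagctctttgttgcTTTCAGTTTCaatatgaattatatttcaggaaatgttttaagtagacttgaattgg
The site in an intron of ART3, 5092 bp from the start of the chemokine gene CXCL10, holds a GAS match that also met the stricter string (chr4:76028489-76028689).
CXCL10 region: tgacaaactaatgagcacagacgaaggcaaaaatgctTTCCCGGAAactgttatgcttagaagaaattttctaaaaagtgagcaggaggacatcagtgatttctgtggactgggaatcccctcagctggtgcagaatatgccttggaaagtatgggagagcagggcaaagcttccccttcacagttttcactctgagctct
The site 8734 bp from SAMD9L, an antiviral gene, holds an ISRE match of the stricter form (chr7:93157019-93157219).
SAMD9L region: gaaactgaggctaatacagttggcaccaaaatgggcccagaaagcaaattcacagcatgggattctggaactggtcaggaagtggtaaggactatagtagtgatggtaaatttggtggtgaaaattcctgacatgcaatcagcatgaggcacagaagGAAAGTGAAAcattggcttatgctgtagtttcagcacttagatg

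The number of IFNG-only sites was compared with what the same rule gave for the other treatments. OSM had 19 such sites, TGFB 2, HGF 1 and PBS 0, each with 6 libraries. Of EGF there were 10 by at least 4 of 8 libraries, and CTRL had 17 by 4 of 4. HGF had a median of 85313 peaks per library (33193 to 99858), IFNG 59453 (6156 to 97284), OSM 45946 (11188 to 107141) and TGFB 14480 (3756 to 105796). The TGFB libraries 24 h B, 24 h C and 48 h B had 7014, 5306 and 3756 peaks. This limits how many TGFB sites could reach 4 of 6 libraries. Whether the counts went with peak number was not tested. The rule cut through a continuous range: 986 sites were found in 3 IFNG libraries and no other, just outside, and 495 in 4 and no other, just inside. A further 121 sites were found in 4 IFNG libraries and 1 other.

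**Figure D1:**
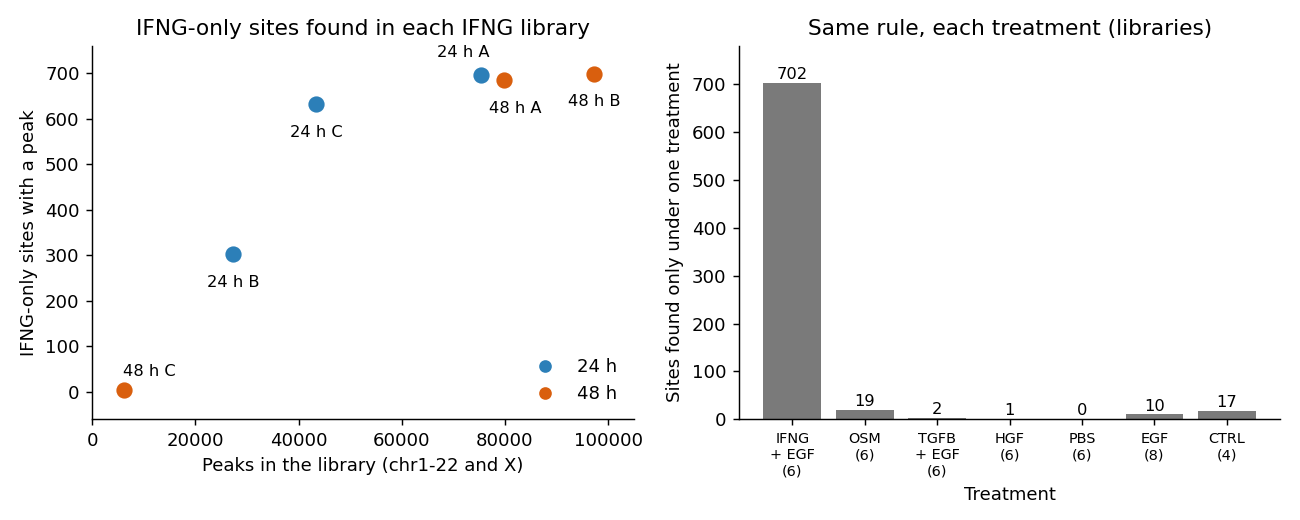
Left, peaks per IFNG library (x axis, chromosomes 1 to 22 and X) against the number of the 702 IFNG-only sites with a peak in it (y axis); blue points are 24 h and orange points 48 h libraries. Right, the number of sites found only under each treatment by the same rule, with the number of libraries in brackets; IFNG had 702 and OSM, the next, 19.

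Of the 702 sites, 495 were found in 4 IFNG libraries, 203 in 5 and 4 in all 6. The 6 libraries did not contribute equally. Library 24 h A held 696 of the sites, 24 h B 303 and 24 h C 632. Library 48 h A held 685, 48 h B 699 and 48 h C 4. The library 48 h C listed 6742 peaks and 24 h B 28109, against 44456 to 99869 in the other 4 IFNG libraries, so these libraries stood apart in peak number. Whether fewer reads or a lower share of reads in peaks went with this was not tested, since the lists hold no read totals. The paper reports that some ATAC-seq samples failed its quality check for a low share of reads in peaks. Its supplement adds that low-quality samples given IFNG with EGF were removed, without naming them. The counts here use all deposited libraries. Among merged sites that were also open elsewhere and were found in 5 IFNG libraries, 48 h C held 2.52% of 16623. A site in 5 of the 6 libraries must lack a library, so this low share is largely set by the choice of sites. Sites also open elsewhere and found in at least 4 IFNG libraries numbered 33709, and 3334 of them were in all 6. Thus 48 h C held at least 3334 of these 33709 sites, against 4 of the 702 IFNG-only sites. Its share was lower among the IFNG-only sites, and this difference was not tested. The most common pattern was presence in 24 h A, 24 h C, 48 h A and 48 h B, with 399 sites. The next was presence in all but 48 h C, with 203. For the 4 IFNG libraries with more peaks, between 9 and 24 of the other 36 libraries listed more peaks than the IFNG library did.

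Both times were represented at every site. Of the 702, 475 were found in 2 libraries at 24 h and 2 at 48 h, 203 in 3 and 2, 20 in 3 and 1, and 4 in 3 and 3. A site called in 4 of 6 libraries must be present at both times, so this is set by the rule.

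The IFNG-only sites were of ordinary strength within their libraries. Column 7 of the peak files gives the fold enrichment at the summit, the fragments stacked there over the local background. Its median over the IFNG-only sites was 6.94, 4.76 and 5.48 in 24 h A, B and C, against 6.03, 5.35 and 5.73 over all peaks of these libraries. It was 6.91, 9.11 and 4.26 in 48 h A, B and C, against 6.36, 7.02 and 5.04. In rank, the median IFNG-only site stood at percentile 62.5, 32.9 and 45.01 of all peaks at 24 h and at 56.7, 68.6 and 25.1 at 48 h. It was above the middle of the library in 24 h A, 48 h A and 48 h B and below it in the other 3, and the last value rests on 4 sites. In the 4 libraries with more peaks 59, 23, 59 and 97 sites (24 h A and C, 48 h A and B) were in the top 10% of all peaks. The stacked fragments could be recovered from the fold and the p-value, and their median at the summits was 17, 11, 12, 18, 26 and 22.5 fragments in the 6 libraries in the same order. The lowest value was 7, so a share of these sites rested on few fragments.

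**Figure D2:**
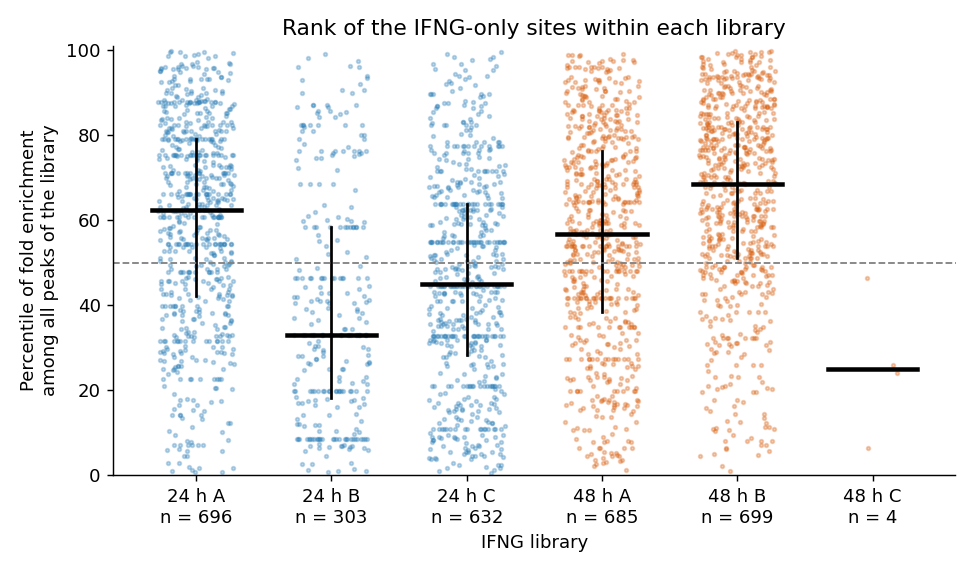
Percentile of fold enrichment among all peaks of the library (y axis) for each IFNG-only site found in it, for the 6 IFNG libraries (x axis, with the number of sites); thick lines are medians, thin lines the middle 50% of sites, and the dashed line is percentile 50. The medians ran from 25.1 in 48 h C to 68.6 in 48 h B.

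Most sites were narrower than 1000 bp and lay apart from the sites of other libraries. Their median width was 462.5 bp (169 to 4764 bp), and 8 were wider than 1000 bp. The median was 436 bp over all merged sites and 379 bp over the 16735 other sites found in 4 to 6 libraries. The summits of the libraries that shared a site lay within 100 bp of each other at 498 sites (70.9%). The nearest site of any other library was more than 1000 bp away for 610 (86.9%) and under 500 bp away for 44 (6.27%). The rule allows no overlap with a peak of another library, and this distance was not measured over all sites. Whether the IFNG-only sites lay further apart than other sites was thus not tested.

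Most IFNG-only sites were distal. The summit lay within 1000 bp of a protein-coding transcription start at 24 of 702 (3.42%), against 9.45% of all merged sites and 3.54% of the 16735 other sites found in 4 to 6 libraries of any kind. It lay in an intron at 343, between genes at 332, in an untranslated region at 18 and in another exon at 9. The median distance to a protein-coding start was 41560 bp. The share near starts was thus low against all sites and close to that of sites detected equally often. The median GC content of the windows was 42.3%, against 46.3% over all merged sites.

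The motif strings were counted in the window of 100 bp on either side of the median summit, on both strands. The rule did not use sequence. An ISRE string was present at 374 sites (53.3%, exact 95% interval 49.5 to 57.02, counting error only), against 4.86% of all merged sites and 4.36% of the other sites in 4 to 6 libraries. A stricter string, GAAAG and GAAA with 1 base between them, was present at 28.1% against 1.58% of all sites. Most of the 374 held a single match: 333 had 1, 33 had 2 and 8 had at least 3 that did not overlap. The GAS string was present at 117 sites (16.7%, 13.98 to 19.6), against 8.08% of all sites. Both strings were present at 52 sites and neither at 263 (37.5%). The AP-1 string TGANTCA, which binds FOS and JUN proteins and is common in epithelial enhancers, was less frequent than in all sites, with 23.2% (20.1 to 26.5) against 34.6%.

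Each string was also searched with its letters in reverse order, meant as a control for base composition. For the ISRE strings it cannot serve as one. Without its first letter, the stricter string equals its own reverse without the last letter. A stricter match followed by G thus also matches both the reversed stricter string and the reversed ISRE string. The reversed ISRE string was present at 206 sites (29.3%) against 3.06% of all sites, so it was more frequent too, though less than the ISRE string. Of the 206, 139 also held the ISRE string. The stricter string reversed was present at 22.2% against 1.40% of all sites. The stricter string and its reverse differed less from each other than the looser pair did, which can follow from their shared letters. Whether base composition contributed to the ISRE share was thus not tested by the reversed strings. Windows with over 75% purines on one strand numbered 6, and among the other 696 the ISRE share was 52.9%. The reversed GAS string was present at 6.41% against 5.71%.

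**Figure D3:**
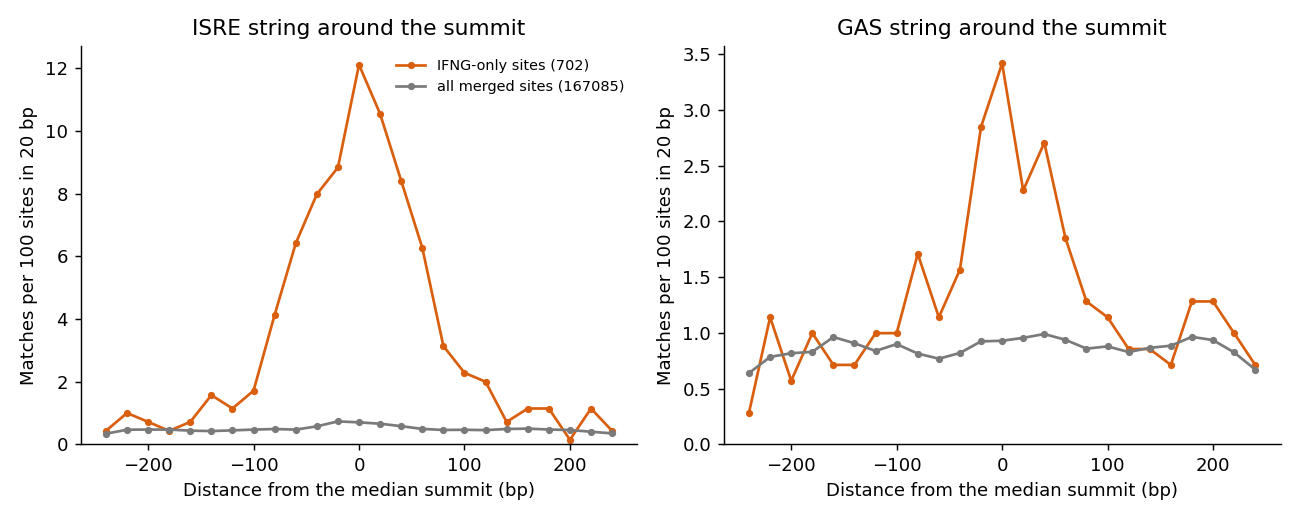
Matches to the ISRE string (left) and the GAS string (right) per 100 sites in bins of 20 bp (y axis) by distance from the median summit (x axis), for the 702 IFNG-only sites (orange) and all 167085 merged sites (grey). At the summit the IFNG-only sites had 12.1 ISRE and 3.42 GAS matches per 100 sites, against 0.698 and 0.929 in all sites.

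The matches were centred on the summits. In the 20 bp around the summit there were 12.1 ISRE matches per 100 IFNG-only sites, and in the outermost bins, 230 to 250 bp away, 0.427 on either side. All merged sites had 0.698 in the central bin. The GAS string had 3.42 matches per 100 sites in the central bin against 0.929.

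The ISRE share was also followed in sites outside the rule. Among sites found in 1 IFNG library and no other, 1480 of 6793 (21.8%) held the string. The share was 40.8% of 1899 sites in 2 libraries, 50.5% of 986 in 3, 53.3% of 495 in 4 and 53.7% of 203 in 5. Of the 4 in all 6, 1 held it. In sites found in 1 library of another treatment and in no other, the share was 4.18% for OSM, 2.77% for TGFB, 3.46% for HGF and 5.30% for PBS. The sites found only under IFNG thus held the string more often than those of these 4 treatments even at 1 library, and the share levelled off from 3 libraries. EGF and CTRL, with other numbers of libraries, were not included. The GAS and AP-1 strings did not set IFNG apart in this way in sites found in 2 libraries of 1 treatment. There the GAS share was 10.95% for IFNG, 17.72% for OSM, 18.85% for PBS, 8.17% for TGFB and 6.93% for HGF. The AP-1 share was 19.75%, 31.31%, 7.38%, 30.24% and 12.87% in the same order. The 19 OSM sites found by the same rule held no ISRE string, 6 held a GAS string and 8 the C/EBP string TTGCNNAA.

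**Figure D4:**
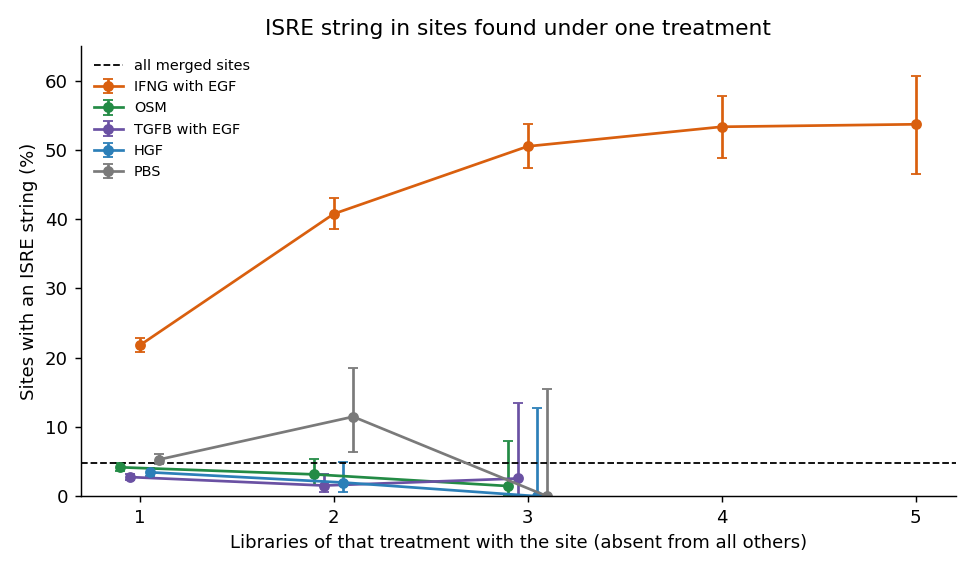
Share of sites with an ISRE string (y axis, percent) against the number of libraries of 1 treatment that held the site (x axis), for sites absent from all libraries of other treatments; bars are exact 95% binomial intervals, sets under 20 sites are left out, and the dashed line is all merged sites. For IFNG the share ran from 21.8% at 1 library to 53.7% at 5, while OSM, TGFB, HGF and PBS stayed at or below 11.5%.

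Genes of the IFNG response were then looked up around the sites, from 6 lists with 119 genes. A protein-coding start within 50 kb of an IFNG-only site was found for 28 of the 119 (23.5%), against 694 of 19962 protein-coding genes (3.48%). By list these were 6 of 17 signalling genes and transcription factors, 5 of 10 guanylate-binding proteins and GTPases, 3 of 27 antigen presentation genes, 4 of 14 chemokines and cytokines, 5 of 17 effectors and complement genes and 5 of 34 antiviral genes. Neighbouring genes can share a site, as GBP1 and GBP3 did. The lists hold genes known to respond to IFNG, and they were chosen with earlier results of these data known.

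Among the transcription factors, a site 161 bp from an alternative start of IRF2, which competes with IRF1 for the ISRE, had folds of 4.90, 3.95 and 4.70 in 24 h A, B and C and 6.96 and 6.64 in 48 h A and B. It held an ISRE string and was not found in 48 h C. A site 2350 bp from a start of PML, the organizer of a nuclear body, had 6.04, 4.32 and 6.81 at 24 h and 3.77 and 6.35 in 48 h A and B. As listed, the IRF2 folds at 48 h were above those at 24 h, and the PML folds overlapped. The median fold over all peaks was also higher in 48 h A and B than in the 24 h libraries, and both readings turned when each library was centred on its median log2 fold, as in the timing test described last. The centred IRF2 values overlapped, with a log2 difference between 48 h and 24 h of 0.01 ± 0.21 SE (adjusted p 0.987 in limma, without 48 h C). The centred PML values did not overlap and were lower at 48 h, with a difference of -0.79 ± 0.22 SE (adjusted p 0.0721 in limma). STAT2, JAK1 and SOCS1, a feedback inhibitor of JAK kinases, also had sites within 50 kb, all in 4 libraries.

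Among the guanylate-binding proteins, the site at the GBP5 start had folds of 7.44, 5.66 and 5.07 at 24 h and 8.38, 7.94 and 4.92 at 48 h. It was the only promoter-proximal site found in all 6 libraries. The distal GBP5 site shown above had 9.07 and 6.61 in 24 h A and B and 8.98 and 11.4 in 48 h A and B. A site 12 bp from the GBP4 start had 6.74 and 6.20 in 24 h A and C and 5.18 and 7.36 in 48 h A and B, and held both strings. The listed folds at 24 h and 48 h overlapped at all 3 sites. After centring they still overlapped at the GBP5 start but not at GBP4, which was lower at 48 h by a log2 difference of -0.53 ± 0.23 SE (adjusted p 0.302 in limma, 24 h A and C against 48 h A and B). The distal GBP5 site was not in the centred comparisons.

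In antigen presentation, the site at the start of CD74, the invariant chain of MHC class II, had 8.56, 4.77 and 7.94 at 24 h and 8.81 and 7.59 in 48 h A and B. It held neither string. A site 10006 bp from a start of NLRC5, the transactivator of MHC class I genes, had 8.83, 5.59 and 8.30 at 24 h and 9.84 and 9.88 in 48 h A and B. The listed CD74 folds overlapped between times, and the NLRC5 folds did not. After centring both overlapped, and the NLRC5 difference was -0.18 ± 0.21 SE on the log2 scale (adjusted p 0.729 in limma, without 48 h C). PSMB10, a subunit of the immunoproteasome, had a site 45 bp from its start in 4 libraries, with the stricter ISRE string.

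The chemokine genes CXCL9, CXCL10 and CXCL11, whose products recruit T cells, lie next to each other on chromosome 4 and held the densest group. When sites within 50 kb were joined, the 702 gave 672 groups, of which 646 were single sites, 23 pairs and 2 groups of 3. The 1 group of 4 ran from the CXCL9 start to an intron of ART3 (chr4:76007241-76083887). Its site 111 bp from the CXCL9 start had 5.27, 4.85 and 4.59 at 24 h and 4.89 and 5.47 in 48 h A and B. The site 95 bp from the CXCL11 start had 9.32 and 8.92 in 24 h A and C and 9.25 and 8.20 in 48 h A and B. The CXCL10 site shown above had 7.05, 4.24 and 5.64 at 24 h and 5.01 and 6.15 in 48 h A and B. At all 3 the listed folds at 24 h and 48 h overlapped. After centring none did, and all were lower at 48 h. At CXCL10 the log2 difference was -0.58 ± 0.20 SE (adjusted p 0.139 in limma, without 48 h C). It was -0.51 ± 0.21 SE at CXCL9 (adjusted p 0.235 in limma, without 48 h C) and -0.53 ± 0.24 SE at CXCL11 (adjusted p 0.318 in limma, 24 h A and C against 48 h A and B). At this group the nearest site of any other library was 11058 bp from the CXCL9 site and 23235 bp from the CXCL11 site. Other sites at starts were less isolated, with 177 bp at GBP5, 211 bp at WARS1 and 123 bp at PSMB10.

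Among effectors, the site 62 bp from a start of APOL3, an apolipoprotein L with antimicrobial activity, had 6.94, 6.37 and 5.05 at 24 h and 6.12 and 9.13 in 48 h A and B. With 2 sites at APOL4 it formed a group of 3. At WARS1, the cytosolic tryptophanyl-tRNA synthetase, a site 130 bp from the start had 7.45, 6.66 and 6.18 at 24 h and 7.41 and 6.61 in 48 h A and B, with both strings. Another start of WARS1 had a peak in 35 of the other libraries. The tryptophan-degrading enzyme IDO1 had a site 153 bp from its start with 4.99, 3.81 and 5.21 at 24 h and 7.38 and 7.22 in 48 h A and B. As listed, the times overlapped at APOL3 and WARS1 and did not at IDO1. After centring, the IDO1 values overlapped, with a log2 difference of 0.07 ± 0.21 SE (adjusted p 0.908 in limma, without 48 h C). The WARS1 values then no longer overlapped and were lower at 48 h, with -0.53 ± 0.22 SE (adjusted p 0.219 in limma), and those of APOL3 still overlapped.

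Among antiviral genes, the SAMD9L site had folds of 5.84, 4.74 and 5.75 at 24 h and 5.34 and 10.3 in 48 h A and B. The ISG20 site was weaker, with 3.48 and 5.05 in 24 h A and C and 4.67 and 3.57 in 48 h A and B. A site 33633 bp from PARP14, an ADP-ribosyltransferase, had 6.46 and 8.03 in 24 h A and C and 6.88 and 10.55 in 48 h A and B. The times overlapped at all 3, both as listed and after centring.

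The 24 promoter-proximal sites fell into a pair of kinds when set beside the main start of the same gene, the start of its MANE Select transcript. At 18 no other library had a peak within 500 bp of that main start. The sites lay 5 to 694 bp from it, and the rule allows no peak of another library at a site. That absence of other libraries is thus largely set by the rule. These 18 were at FAM167B, GBP4, GBP5, SLC15A3, IL18BP, PLEKHG7, WARS1, PSMB10, IFNL2, IFNL1, APOL3, APOL4, APOBEC3G, ACKR4, CXCL9, CXCL11, CD74 and IDO1. At the other 6 the site lay over 1000 bp from the main start, near an alternative one, and the main start had a peak in 14 to 32 other libraries. These were SAR1A, GATAD2A, CMKLR2, IRF2, LHFPL2 and PSMG3. Of the 24, 11 held an ISRE string. Naming all 24 was decided after their values were seen.

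Open main starts were common among the listed genes irrespective of treatment. Of the 116 with a MANE Select transcript, 70 had a peak at the main start in at least 18 of the other 36 libraries, and 28 in none. Of the 28 listed genes with an IFNG-only site within 50 kb, 13 had the start open in at least 18 other libraries and 12 in none, against 57 and 16 of the 88 genes without such a site. Several of the 12, such as GBP4, GBP5, CD74 and CXCL9, had the IFNG-only site at the main start itself. The rule allows no peak of another library there, so this contrast is in part set by the rule.

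The strongest sites by mean percentile, named after their values were seen, were mostly far from starts. A site in an intron of PHTF1 stood at percentile 98.3 on average, with folds of 12.29 and 12.67 in 24 h A and C and 16.2 and 18.7 in 48 h A and B, and it held the stricter ISRE string. A site between genes, nearest to RAI14 at 240283 bp, stood at 97.1. A site 15712 bp from IL7, a lymphocyte survival cytokine, stood at 96.2 with 16.6, 8.09 and 9.95 at 24 h and 14.1 and 18.0 in 48 h A and B. In all, 16 sites had a mean percentile of at least 90 and 266 one under 50. The ISRE share was 63.7% of the 102 sites at percentile 75 or above, 59.6% of the 436 at 50 or above and 42.9% of the 266 under 50.

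A few very wide, low sites had summits beyond the 3′ ends of the main transcripts of listed genes, and this was looked for after the widths were seen. The widest site of all, 4764 bp (chr5:132477415-132482178), had its summit 408 bp past the end of the main transcript of IRF1. That summit was still inside the annotated IRF1 gene, in an intron, and the site reached back across the end of the main transcript. The second, 3679 bp (chr14:100329782-100333460), lay 2617 bp past the end of WARS1 and nearer, 752 bp, past that of SLC25A47, which is in no list. The third, 2288 bp (chr5:150398582-150400869), lay 2244 bp past CD74 and in an intron of TCOF1. A site of 610 bp (chr1:89046567-89047176) lay 5446 bp past GBP1. All 4 had median folds of 3.27 to 4.03 and mean percentiles of 2.56 to 8.92, and none held an ISRE or a GAS string. These low folds stood on many fragments at some sites. The IRF1 site had folds of 2.84, 2.97 and 3.07 at 24 h and 4.52, 3.52 and 3.61 at 48 h, with 119, 60, 90, 203, 237 and 39 stacked fragments at the summit in the 6 libraries. The site past SLC25A47 and WARS1 had folds of 3.00, 3.08 and 3.62 at 24 h and 3.68, 2.99 and 4.22 at 48 h, with 71, 31, 47, 96, 114 and 32 fragments.

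Counted over listed genes with a MANE Select transcript, 6 of 115 (5.22%) had an IFNG-only site within 10 kb past the end, against 60 of 19060 protein-coding genes (0.315%). The other 2 were a site of 522 bp past JAK1 and in an intron of RAVER2, at percentile 77.1 with an ISRE string, and the CXCL10 site, which also lies past CXCL11. Of the 8 sites wider than 1000 bp, those nearest to NEK1, ITGA6, EID2 and CFHR3 each held an ISRE string. Within 5000 bp past any end lay 32 of the 702 sites (4.56%), against 5.23% of all merged sites.

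**Figure D5:**
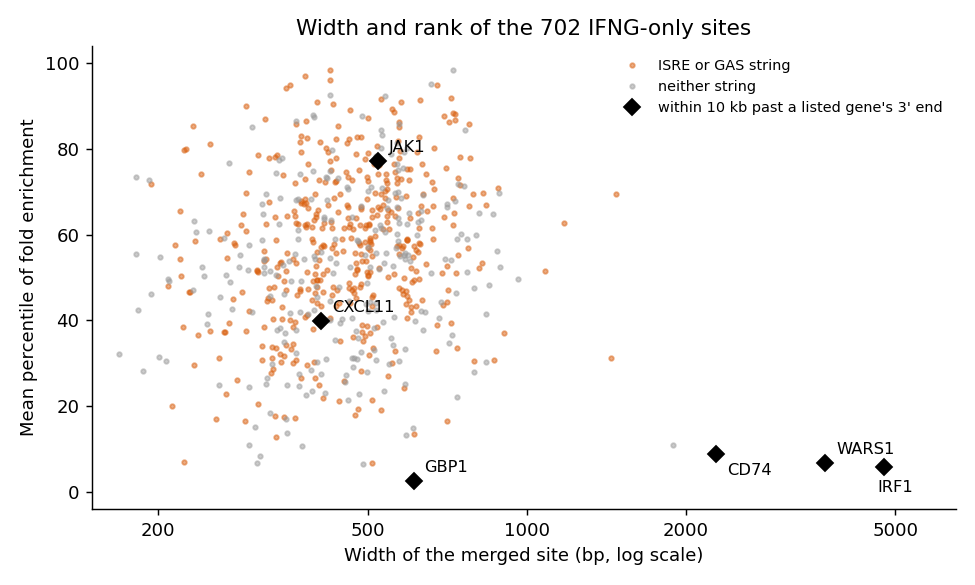
Width of each of the 702 IFNG-only sites (x axis, bp, log scale) against its mean percentile of fold enrichment in the libraries that held it (y axis); orange points hold an ISRE or GAS string, grey points neither, and black diamonds lie within 10 kb past the 3′ end of the listed gene named beside them. The 3 widest sites, past IRF1, WARS1 (nearer to SLC25A47) and CD74, all stand below percentile 10. Ends are those of the main transcripts.

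Interferon lambda genes, which encode type III interferons, also had sites, named after their values were seen. The site at the IFNL2 start had folds of 8.97 and 4.90 in 24 h A and C and 7.79 and 11.2 in 48 h A and B. The IFNL1 site had 9.06 and 6.01 in 24 h A and C and 10.1 and 11.4 in 48 h A and B. Both held an ISRE string. The EID2 region site, on the same arm of chromosome 19, had folds of 10.2, 4.70 and 6.41 at 24 h, followed by 9.76, 12.3 and 4.30 in the 48 h libraries. A site 22229 bp from LGALS16 in the same region stood at percentile 91.5 with the stricter ISRE string. Another, 23383 bp from LGALS16, stood at percentile 6.855 with a median fold of 3.716, and held a GAS but no ISRE string.

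Timing was tested on column 7, which the rule did not use, with libraries centred on their median. Sites with a peak in all 6 IFNG libraries numbered 3338, of which 4 were IFNG-only. None of the 4 and none of the 3338 (0%) passed an adjusted p of 0.05 between 48 h and 24 h in limma, and 170 of the 3338 and 0 of the 4 had an unadjusted p below 0.05. The library medians over the 4 sites were -1.11, -0.83 and -0.93 on the log2 scale at 24 h and -0.84, -1.16 and -0.25 at 48 h. The groups overlapped, and the difference of 0.21 had an exact two-sided permutation p of 0.7. With 3 libraries against 3 this p cannot go below 0.1.

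Leaving out 48 h C, the library with the fewest peaks, raised the number of IFNG-only sites that could be tested to 207. Of 19740 sites, 314 (1.59%) passed in limma, 29 of them higher at 48 h. Of the 207 IFNG-only sites, 3 passed and all were lower at 48 h, a count close to the share of all sites. An unadjusted p below 0.05 was found at 47 of the 207 (22.7%), 12 of them higher at 48 h, and at 3151 of the 19740 (15.96%). The 3 sites that passed were nearest to MATR3 (log2 difference -1.06 ± 0.21 SE, adjusted p 0.0148), TTLL11 (-1.02 ± 0.22, 0.0217) and JRKL (-0.89 ± 0.21, 0.0283). The median difference was -0.08 over the 207 and -0.04 over all sites tested. With 24 h B left out as well, a comparison of 2 against 2 libraries added after the data were seen, 606 of the 702 sites could be tested. Of 31720 sites, 165 (0.52%) passed in limma, 18 of them higher at 48 h. Among the 606, 4 passed and all were lower at 48 h, nearest to EXT1, GATA3, JRKL and MATR3. An unadjusted p below 0.05 was found at 117 of the 606 (19.3%), 25 of them higher at 48 h, and at 4473 of all sites (14.1%). Without centring the direction turned: 741 sites (2.34%) passed, 736 of them higher at 48 h, and 11 of the 606, all higher. The median of all sites then moved to 0.42, and that of the 606 to 0.34. With quantile normalisation 0 passed in limma, and 4145 of all sites and 99 of the 606 had an unadjusted p below 0.05. With centring the share with an unadjusted p below 0.05 was thus higher among the IFNG-only sites than over all sites, mostly towards lower values at 48 h, while the share that passed was similar. Without centring the share with such an unadjusted p was lower among them, 20.96% against 25.3%. Whether the IFNG-only sites differed from other sites in this was not tested.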

How the data were processed

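ATAC-seq was measured in 42 libraries of MCF10A cells, each with 1 deposited list of peaks. Per the submitters' processing notes, reads were handled with Trimmomatic 0.36.5, Bowtie2 2.3.4.1, Picard and MACS2 2.1.1.20160309.5 on hg38. The authors called peaks in each library separately. The deposited columns hold a MACS2 score, the fold enrichment at the summit (a ratio), and -log10 p-values and q-values. Peak positions are those the authors listed. A list of called peaks has a floor, so a site not listed is not shown to be closed. Read totals are not given in these lists, so sequencing depth and its precision are not known, and only peak numbers are compared.

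Peaks overlapping by 1 bp were merged, and members and gene lists were chosen with earlier results of these data known. The transcripts were GENCODE 44. Summit fragments were solved from the fold and p-value columns, within 0.001 in -log10 p at low values, in all member peaks. Sites were named by rule: up to 10 members in all 6 IFNG libraries by mean percentile, up to 3 per gene list (more libraries first, then the nearer to a start), and promoter-proximal members in all 6. Column 7 was compared on the log2 scale with limma 3.58.1 in R 4.3.3, with Benjamini-Hochberg adjustment over all sites, and exact permutation; steps were tested on simulated data. Alternative overlaps, thresholds, windows, distances, scalings and left-out libraries were tried. Exact binomial intervals cover counting error only. Some sites and sequences are not reported here.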

Additional observations from a re-analysis of the deposited data

Results flagged for a closer look

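Contigs outside chromosomes 1 to 22 and X held peaks that the comparisons above did not use. Merged in the same way they gave 4631 sites, of which 8 met the same rule, found in at least 4 IFNG libraries and in none of the other 36. Of the 8, 3 lay on alternative contigs of chromosome 6 and 2 on an alternative contig of chromosome 4, and 2 were found in 5 IFNG libraries and 6 in 4. Alternative contigs repeat sequence of the primary chromosomes, so reads can be split between copies. Each IFNG group has 3 libraries, too few to test a single library as an outlier.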

How the results depend on the processing

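The number of IFNG-only sites depended on the rule. It was 466 with a -log10 q of at least 5 in all libraries, 382 with it in the IFNG libraries only, 1688 at 3 or more IFNG libraries, 207 at 5 or more, 4 at 6, and 1163 when only the 8 EGF libraries had to lack the site. It ran from 210 to 702 when 1 IFNG library was left out: 213 without 24 h A, 277 without 24 h C, 224 without 48 h A and 210 without 48 h B. The ISRE share was 25.0% of those 4 sites, 49.2% with up to 2 other libraries allowed, 44.2% against EGF only, 48.7% against EGF and CTRL, 37.2% and 60.7% with windows of 50 and 250 bp, 28.1% with the stricter string, and 52.0% to 54.5% with 1 library left out. The promoter-proximal share was 25.0% of the 4 and 5.98% with starts of all gene types. Listed genes with a site nearby numbered 18 with the stricter q in IFNG libraries, 16 at 5 libraries, 3 at 6, 18 within 10 kb, and 16 to 28 with 1 library left out (16 without 24 h A, 48 h A or 48 h B, and 17 without 24 h C).

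Between 48 h and 24 h, 0 to 3 IFNG-only sites passed with 1 library left out, the 3 without 48 h C. In the comparison of 2 against 2 libraries, 4 passed with centring and 11 without. The difference of library medians, 0.21, ran from -0.0614 (without 48 h C) to 0.40 with 1 library left out. In the comparison of 2 against 2 it was -0.0875 with centring, -0.0768 with quantile normalisation and 0.37 without centring. With all 6 libraries it was 0.28 without centring and 0.34 with quantile normalisation (exact permutation p 0.1, the smallest possible). With the replicate block it was 0.21 (exact p 0.75, where 0.25 is the smallest possible) and 0 sites passed. Deviations of same-lettered libraries from their group means correlated at 0.27, -0.48 and -0.08 for A, B and C. Those of 24 h B and 48 h C correlated at 0.48. Deviations within so small a group are tied to each other, so these values do not settle whether the letters pair the libraries. The low peak numbers of 24 h B and 48 h C limit all counts of libraries. The cause of these changes was not tested, beyond that fewer libraries or stricter peaks leave fewer sites.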
